A study of Ovis aries with 26 samples.

Results

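Cell division was followed in the developing sheep pancreas through 10 genes: MKI67, TOP2A, CENPF, UBE2C, AURKA, CCNA2, CCNB1, MCM2, MCM5 and PCNA. They are a list of known cell cycle genes, and all 10 are among the 24478 genes of the count tables. A dividing cell first copies its DNA in S phase, then prepares for and carries out mitosis in the G2 and M phases. The replicative helicase and its sliding clamp are made around S phase, whereas cyclins, mitotic kinases and kinetochore proteins accumulate from late S phase and are destroyed as mitosis ends, so transcripts of both kinds mark cells in the cycle. In the fetal pancreas, progenitors, ducts, acini and mesenchyme all divide as the organ expands, and differentiated hormone cells are known for a low rate of division.

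The study asked how loss of the cystic fibrosis (CF) chloride channel gene CFTR changes the pancreas before birth, and single cells were isolated from fresh pancreas of American Romney sheep with collagenase, with red blood cells lysed. There were 26 libraries from 23 animals. At 80 days (80d) of gestation the non-CF group held 4 males, of which donors 1 and 3 were wild type (WT) and donors 2 and 4 were heterozygous (HZ), with 1 targeted CFTR allele, and the CF group held 3 cloned males. At 120d there were 3 WT fetuses (donor 2 female) and 6 CF fetuses, of which donors 1 to 4 were cloned males and donors 5 and 6 naturally bred females. At term there were 4 WT lambs (donor 3 female) and 3 CF lambs, of which donors 1 and 2 were naturally bred females and donor 3 was a cloned male. CF donor 1 at 120d and CF donors 1 and 3 at term gave 2 libraries each. The CF animals were CFTR-/- in the whole body, and all clones came from a single male fibroblast line, so the cloned animals share 1 genome. At 80d all CF fetuses were cloned, so the genotype effect cannot be told apart from breeding there. At 120d and term the CF groups held both kinds, with the clones male and the naturally bred animals female. Breeding and sex thus changed with age in the CF groups, so there age cannot be fully told apart from them. All non-CF animals were naturally bred. Statistical tests treat the animal, not the cell, as the replicate. Non-CF donors 2 to 4 at 80d came from the same pregnancy, as did CF donors 5 and 6 at 120d. The study's animal numbers tie CF donors 2 and 3 at 80d, CF donors 2 and 3 at 120d and non-CF donors 1 and 2 at 120d in the same way, and its methods give fewer recipient ewes than cloned fetuses at both ages, so the animals are less independent than the p-values assume.

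Cells with over 200 and under 6000 genes and under 25% mitochondrial counts were kept, which left 79510 of 109501 barcodes. The libraries held 7841217 to 171256169 counts of unique molecular identifiers (UMIs, 1 per captured RNA molecule) and their kept cells a median of 3425 to 24633. Sums of marker genes placed 73295 cells (92.2%) in 7 lineages: 35943 acinar, 11282 duct, 9125 endocrine, 6346 stromal, 2352 mural, 4273 endothelial and 3974 immune cells, with 2423 of them near a limit of the gate. Acinar markers were also found in cells of other kinds: the acinar score of the cell at percentile 10 of a library ran from 0 to 0.0278 at 80d, 0 to 0.136 at 120d and 0.0203 to 0.241 at term. The part of free acinar RNA in the results was not tested.

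Because a deeper cell shows more genes, each cell was thinned at random to 2000 UMIs, and the 7005 shallower cells were left out. A cell with UMIs of at least 2 of the 7 G2/M genes (MKI67, TOP2A, CENPF, UBE2C, AURKA, CCNA2 and CCNB1) is called a dividing cell below. The name stands for this count, since no division was observed. Of 72505 thinned cells, 2040 (2.81%) were dividing, 4645 (6.41%) had any of the 7 genes, 1329 (1.83%) had at least 3 and 37 had all 7. Without thinning the share was 6.81%. Dividing cells held a median of 3874.5 genes against 2591 in the other cells and 16670 UMIs against 13543 before thinning, and doublet scores marked 2.5% of them against 3.21%.

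The 7 G2/M genes were found together far more often than their separate shares would give. TOP2A, the topoisomerase that untangles chromosomes, was in 70.1% of the 994 cells with MKI67, the proliferation antigen that coats mitotic chromosomes. AURKA, a kinase of the spindle poles, and CCNA2, cyclin A2 of S and G2 phase, shared 164 cells, 28.6 times the product of their shares. Pairs of a G2/M gene and a replication gene stood lower, from 1.61 to 4.26 times that product (the latter CCNA2 with the helicase subunit MCM2), except that CCNB1, cyclin B1, which drives entry into mitosis, shared 10 cells with MCM5, another helicase subunit, 0.889 times the product. The 3 pairs among MCM2, MCM5 and PCNA lay within that range, at 2.63 to 3.53 times. Cells with at least 2 of MCM2, MCM5 and PCNA, 463 in all (0.639%), are called S phase cells below. That name also stands for the count only, since DNA replication was not observed. Of the 463, 87 were also dividing cells, 18.8% of S phase cells and 4.26% of dividing cells. Most S phase cells thus held under 2 of the G2/M genes at this depth, although their dividing share was above the 2.81% of all cells. Pairs of the 9 members other than MCM2 also differed in how their levels moved together over 153 sums of an animal and lineage, from a Pearson correlation of 0.268 (UBE2C and MCM5) to 0.915 (TOP2A and CCNA2). These sums share libraries and depth, so the values describe them only.

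The share of dividing cells among all kept cells was highest at 80d in both genotypes. At 80d it was 4.98%, 6.38%, 4.33% and 6.60% in non-CF donors 1 to 4, and 6.15%, 6.58% and 5.96% in CF donors 1 to 3. At 120d it was 2.05%, 2.91% and 2.59% in the non-CF fetuses, and 2.06%, 3.33%, 2.77%, 2.75%, 2.41% and 1.92% in CF donors 1 to 6. At term it was 1.38%, 1.62%, 1.18% and 1.58% in the non-CF lambs, and 0.955%, 3.75% and 2.10% in the CF lambs. Every fetus at 80d lay above every fetus at 120d, while CF donor 2 at term lay above all 9 fetuses at 120d.

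From 80d to 120d the mean share fell by 3.33 percentage points, from 5.86% ± 0.870 (SD, n = 7) to 2.53% ± 0.464 (SD, n = 9), a ratio of 2.31 (exact two-sided permutation p = 0.000175, the smallest this design allows, adjusted p = 0.00035 over 2 steps). From 120d to term it changed by -0.74 points, to 1.79% ± 0.935 (SD, n = 7), which missed the threshold of 0.05 (exact two-sided permutation p = 0.0573). Without CF donor 2 at term the second difference was -1.06 points (exact permutation p = 0.0016), and without CF donor 6 at 120d it was -0.814 points and also passed. Both genotypes showed the first fall, by 3.06 points in the non-CF animals (exact permutation p = 0.0571, the smallest 3 against 4 animals allow) and by 3.69 points in the CF animals (exact permutation p = 0.0238). Unthinned means were 11.1%, 5.72% and 5.63%, with acinar cells the deepest lineage.

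**Figure D1:**
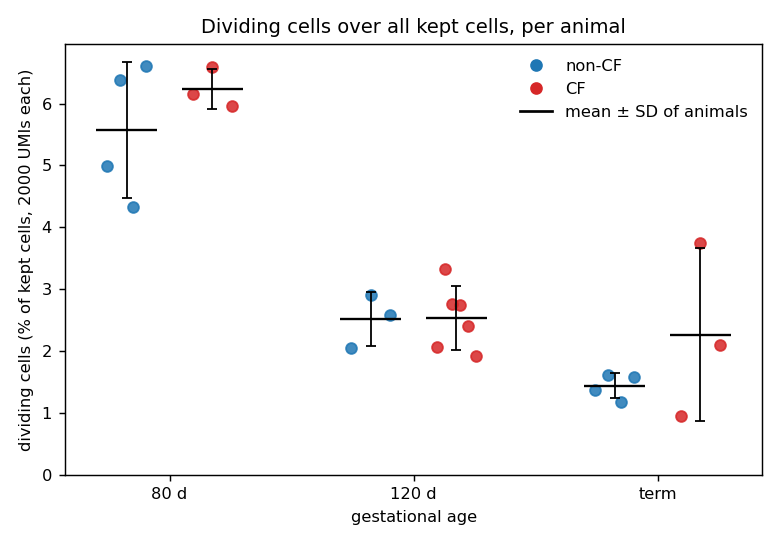
Share of all kept cells with UMIs of at least 2 of the 7 G2/M genes after thinning to 2000 UMIs (percent, vertical axis) by age and genotype; each point is 1 animal, and bars show the group mean and SD. The 7 animals at 80d lie between 4.33% and 6.60%, above all 9 at 120d (1.92% to 3.33%), and CF donor 2 at term stands at 3.75%.

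The lineages did not keep the same course. Stromal cells, the fibroblast-like cells that lay down collagen, had shares from 5.38% to 10.7% at 80d (median 7.53%, n = 7), from 0% to 5.13% at 120d (median 2.47%, n = 9) and from 0% to 1.02% at term (median 0.237%, n = 5). The ranges at 80d and 120d did not overlap. The mean fell from 7.55% to 2.25% (exact permutation adjusted p = 0.00245 over the 14 lineage-by-step tests), and its mean of 0.311% at term did not pass against 120d (exact permutation adjusted p = 0.0568). At term the counts were 0 of 87 cells and 2 of 843 cells in non-CF donors 4 and 2, and 1 of 336, 2 of 196 and 0 of 54 cells in the CF lambs. The counts of 0 in 87 and 54 cells allow shares of up to 3.45% and 5.56%, the latter within the range at 80d. At 120d the shares of 0% were 0 of 125 cells in non-CF donor 1 and 0 of 22 cells in CF donor 4, which allow up to 2.40% and 13.6%. Non-CF donors 1 and 3 at term, with 13 and 29 stromal cells, had 9 and 18 left after thinning, under the minimum of 20, and were left out.

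Duct cells, which carry the secretions of the acini and normally express CFTR, had shares from 3.06% to 11.8% at 80d (median 9.28%, n = 7) and from 1.27% to 3.59% at 120d (median 2.27%, n = 9). Their mean fell from 8.27% to 2.33%, a ratio of 3.55 (exact permutation adjusted p = 0.00367). Only non-CF donor 3 at 80d, with 3 of 98 cells, lay within the range at 120d. At term the duct shares had the widest spread of the 7 lineages, since 0 of 288 and 0 of 216 cells were dividing in non-CF donors 1 and 3, against 1.31% in donor 2 and 6.73% in donor 4, and 1.14%, 5.75% and 3.52% in the CF lambs. Those counts of 0 allow shares of up to 1.04% and 1.39%. The mean of 2.63% ± 2.74 (SD, n = 7) at term did not differ from that at 120d beyond this spread (exact permutation adjusted p = 0.749).

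Endothelial cells had the highest mean at 80d, 9.74% ± 4.61 (SD, n = 7), and fell to 3.57% ± 2.77 (SD, n = 9) at 120d (exact permutation adjusted p = 0.0181). The range was 3.03% to 15.9% at 80d (median 8.51%) and 1.23% to 8.57% at 120d (median 2.00%), so the ages overlapped. At term the endothelial shares ran from 0% to 6.71% (median 1.94%, n = 7, exact permutation adjusted p = 0.439 against 120d), with CF donor 2 highest. The 0% was 0 of 30 cells in non-CF donor 3, which allows up to 10%. In the non-CF animals the means at 80d, 120d and term were 9.51%, 5.88% and 2.06%. In the CF animals they were 10.0%, 2.41% and 3.03%. The fall to 120d was thus larger in CF animals, and the step to term went in opposite directions. The CF rise to term rested on CF donor 2 at 6.71%, since CF donors 1 and 3, at 1.31% and 1.07%, lay below the CF mean at 120d. This difference in course between the genotypes was not tested.

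Endocrine cells, which store and release islet hormones, were alone among the 7 lineages in having a higher share at term that passed the test. At 80d they had 3.58%, 2.65%, 2.38% and 4.64% in the non-CF fetuses and 1.53%, 1.42% and 2.95% in the CF fetuses. At 120d the shares were 0.755%, 1.92% and 1.19% in the non-CF fetuses and 0.57%, 1.10%, 1.46%, 0.472% and 1.15% in CF donors 1, 2, 4, 5 and 6. At term they were 2.17%, 2.70% and 2.83% in non-CF donors 2, 3 and 4 and 0.981%, 2.58% and 3.12% in the CF lambs. All term animals but CF donor 1 lay above all fetuses at 120d, while the 80d and 120d ranges overlapped in part.

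The endocrine mean fell from 2.74% to 1.08% between 80d and 120d (exact permutation adjusted p = 0.0116) and rose by 1.32 points to 2.40% at term (exact permutation adjusted p = 0.0163). These values rest on few cells, 164 dividing endocrine cells of 8831 in all. The endocrine rise passed against the change of 3 other lineages between 120d and term, in a comparison added after the values were seen: the within-animal difference between endocrine and acinar cells moved by 2.48 points (exact permutation adjusted p = 0.00999 over 12 tests), that to stromal cells by 2.84 points (exact permutation adjusted p = 0.0112) and that to immune cells by 3.40 points (exact permutation adjusted p = 0.00999). Against duct, mural and endothelial cells the rise did not pass (exact permutation adjusted p = 0.559, 0.0959 and 0.0959).

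The other lineages had lower means at each step, none of which passed. Acinar cells, the enzyme-secreting bulk of the organ, had means of 3.84%, 2.60% and 1.48% at the 3 ages (exact permutation adjusted p = 0.0984 and 0.0568). Mural cells had 6.59%, 2.76% and 0.868% (exact permutation adjusted p = 0.0568 and 0.287). Their gate used markers such as ACTA2, TAGLN, TPM2 and CALD1, by which the paper names its stellate cells or myofibroblasts. It can thus hold such cells as well as cells of the vessel wall. Each animal used had 27 to 481 mural cells. At 120d 0 were dividing in non-CF donor 1 and CF donors 4, 5 and 6, which allow shares of up to 5.77% to 10%. At term 0 were dividing in non-CF donor 2 and CF donor 3, which allow up to 1.99% and 1.71%. Immune cells had 7.15%, 4.84% and 2.75% (exact permutation adjusted p = 0.148 and 0.0568). In all, 5 of the 14 lineage-by-step tests passed.

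The order of the lineages by their mean share over animals was endothelial, duct, stromal, immune, mural, acinar and endocrine at 80d, and immune, endothelial, mural, acinar, duct, stromal and endocrine at 120d. At term it was immune, duct, endothelial, endocrine, acinar, mural and stromal. The order changed with the setting. Without thinning, acinar cells, the deepest lineage, came first at 120d (9.01%) and at term (7.09%). With thinning outside the marker genes, to 1000 UMIs instead of 2000, endocrine cells came first at term (1.95%). Within animals that held both lineages, 0 of the 18 pairs of neighbors passed (exact sign-flip permutation, lowest adjusted p = 0.562), in a design too small for any 1 pair to pass alone. Mural lay above acinar cells in 6 of 6 animals at 80d, by 2.74 points (exact sign-flip permutation p = 0.0312 before adjustment, the smallest 6 animals allow). Within animals the mean difference had the opposite sign to the order for 2 pairs at term, with immune minus duct cells at -0.321 points and endothelial minus endocrine cells at -0.148 points. Stromal cells thus moved from the upper lineages at 80d to the lowest at term, and endocrine cells left the lowest place, as an order of means only.

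**Figure D2:**
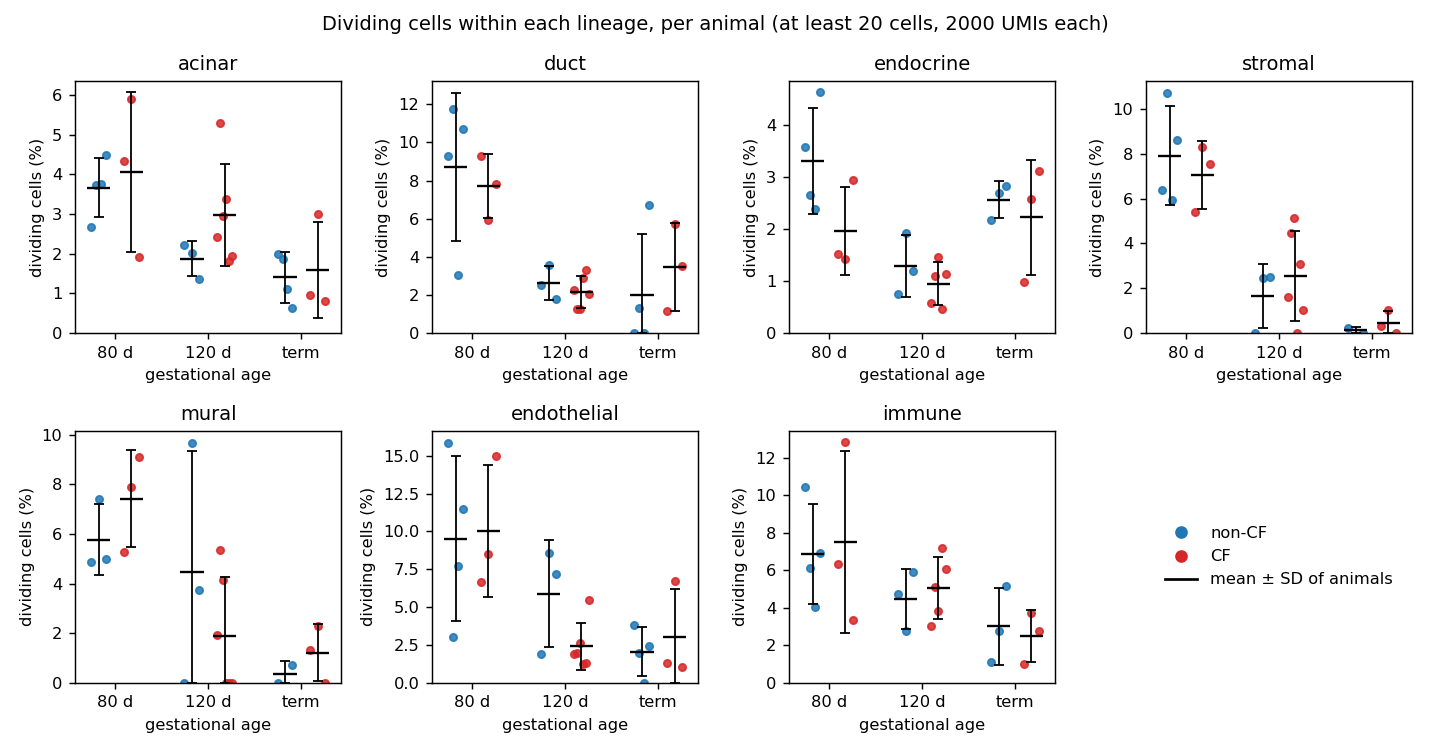
Share of dividing cells (percent, vertical axis, 1 panel per lineage) by age in non-CF and CF animals with at least 20 cells of the lineage; each point is 1 animal, and bars show the mean and SD. The stromal panel falls from a mean of 7.55% at 80d to 0.311% at term, while the endocrine panel goes from 2.74% to 1.08% and back to 2.40%.

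Among the G2/M genes, TOP2A was found in the most cells: 5.73% to 8.41% of all kept cells at 80d (median 7.63%), 1.86% to 4.22% at 120d (median 3.19%) and 1.15% to 4.33% at term (median 1.87%). CENPF, a protein of the kinetochore and nuclear matrix, had mean shares of 5.78%, 2.81% and 1.66%. UBE2C, the ubiquitin-conjugating enzyme that helps to destroy cyclins at the end of mitosis, had 5.07%, 2.01% and 1.82%. MKI67 had 3.04%, 1.25% and 0.817%, CCNA2 2.10%, 0.998% and 0.739%, CCNB1 1.91%, 0.808% and 0.66%, and AURKA 1.32%, 0.782% and 0.433%. All 7 thus had their highest mean at 80d. The ranges at 80d and 120d did not overlap for TOP2A, for UBE2C (3.89% to 6.09% and 0.873% to 2.79%), for CCNA2 (1.76% to 2.41% and 0.696% to 1.65%) and for CCNB1 (1.10% to 2.19% and 0.532% to 1.06%). They overlapped for MKI67 (1.65% to 4.19% and 0.709% to 1.75%), CENPF and AURKA.

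The 3 replication genes also had their highest means at 80d. PCNA, the sliding clamp of DNA polymerases, which also serves in DNA repair, was in 12.7% ± 1.20 (SD, n = 7), 8.81% ± 2.35 (SD, n = 9) and 8.38% ± 2.16 (SD, n = 7) of cells at the 3 ages, more than any other member. MCM2 and MCM5, both subunits of the helicase that opens the DNA, were in 1.77%, 0.866% and 0.86% and in 2.14%, 1.59% and 1.79% of cells. MCM5 ranged from 0.967% to 3.52% at 80d, 0.919% to 2.47% at 120d and 0.596% to 3.64% at term, so the ages overlapped widely. In stromal cells PCNA was in 16.2%, 9.54% and 9.30% of cells on average at the 3 ages, and at term MKI67 was in 0.154%. In immune cells the PCNA share was 13.4%, 13.1% and 12.8%.

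**Figure D3:**
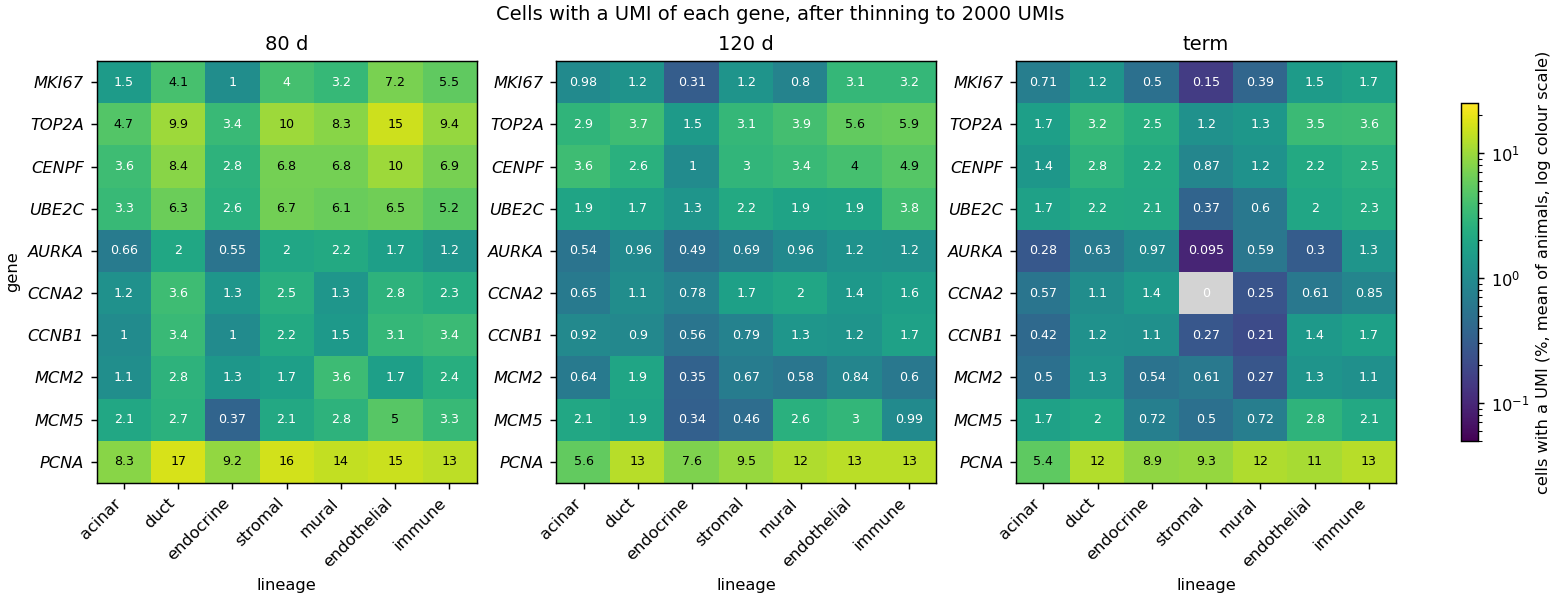
Mean share of cells with a UMI of each of the 10 genes (rows) in each lineage (columns) at 80d, 120d and term (panels), after thinning to 2000 UMIs; color gives percent on a log scale. TOP2A reaches 15.4% in endothelial cells and 10.1% in stromal cells at 80d and 1.16% in stromal cells at term, while PCNA stays between 5.38% and 17.1% of each lineage.

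Levels were then compared as UMIs summed per animal and lineage, with edgeR's quasi-likelihood test across all genes of the lineage. Such a sum uses all UMIs, weights deep cells and cannot tell fewer expressing cells from less RNA per cell. Of 70 gene-by-lineage pairs, 69 passed the filter on low counts, MCM2 in mural cells being the exception. From 80d to 120d, 58 of the 69 estimates were below 0, and 0 of the 69 passed an adjusted p of 0.05 in edgeR, 21 passed an unadjusted p of 0.05, all of them lower, and DESeq2 called 1, CCNB1 in duct cells. Over all genes in the 7 lineages, edgeR called 3.19% higher and 2.52% lower between these ages, 9.37% were lower at an unadjusted p under 0.05, and DESeq2 called 7.66% in either direction. From 120d to term, edgeR called 10 of the 69 lower and 1 higher, 24 passed an unadjusted p of 0.05 and DESeq2 called 12. At that step 30.9% of all genes passed an unadjusted p of 0.05 in edgeR, near the members' share, and DESeq2 called 18.1%. The background of edgeR calls over all genes was 7.62% lower and 8.72% higher, so the members' share of lower calls was above it and that of higher calls below it.

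In stromal cells all 7 G2/M genes fell from 120d to term and the 3 replication genes were not called. TOP2A was at 9.58, 347 and 99.7 CPM (UMIs of the gene scaled to the lineage's total UMIs in that animal, with edgeR's TMM scaling between sums) in the non-CF fetuses and 117, 248, 155, 0, 270 and 64.2 CPM in the CF fetuses at 120d. At term it was at 10.5, 0 and 8.33 CPM in non-CF donors 2, 3 and 4 and 6.40, 45.1 and 0 CPM in the CF lambs. It had been at 222 to 380 CPM in the 7 fetuses at 80d. The 120d and term values overlapped through non-CF donor 1 and CF donor 4 at 120d, and the log2 fold change was -3.53 ± 0.70 (SE, edgeR adjusted p = 0.00112). UBE2C was at 4.97, 0 and 0 CPM in these non-CF lambs and 1.42, 22.1 and 0 CPM in the CF lambs, against 4.79 to 128 CPM in the non-CF and 0 to 144 CPM in the CF fetuses at 120d (log2 fold change -3.59 ± 0.68, SE, edgeR adjusted p = 0.000789).

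The log2 fold changes of the other stromal G2/M genes between 120d and term were -3.50 for CENPF, -3.10 for CCNA2, -2.89 for MKI67, -2.01 for CCNB1 and -1.99 for AURKA, with edgeR adjusted p from 0.000723 to 0.037. MKI67 was at 0 to 47.2 CPM in the 9 fetuses at 120d and 0 to 3.01 CPM in the 6 lambs. The calls of MKI67, AURKA and CCNB1 were lost in 2, 8 and 2 of the 22 fits that left out 1 animal, those of TOP2A, CENPF, UBE2C and CCNA2 in none. The AURKA call was also lost with at least 50 cells per sum (edgeR adjusted p = 0.0541). For MCM2, MCM5 and PCNA the stromal estimates were 0.11, 0.05 and -0.34 (edgeR adjusted p = 0.927, 0.964 and 0.490). In stromal cells 10.8% of all genes tested were called lower.

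In acinar cells 3 of the 10 members fell from 120d to term, where 14.9% of all acinar genes did. CENPF was at 25.2, 36.3 and 22.8 CPM in the non-CF and 22.1 to 58.1 CPM in the CF fetuses at 120d, and at 5.68, 20.6, 11.8 and 7.25 CPM in the non-CF and 6.91, 25.1 and 6.81 CPM in the CF lambs. Only CF donor 2 at term lay within the 120d range (log2 fold change -1.42 ± 0.39, SE, edgeR adjusted p = 0.0078). AURKA changed by -1.18 ± 0.35 and TOP2A by -1.14 ± 0.35 on the log2 scale (SE, edgeR adjusted p = 0.0129 and 0.0159), and the TOP2A call was lost without CF donor 3 at term (edgeR adjusted p = 0.0525). The edgeR estimates of the other 7 were between -0.75 and -0.04. The median acinar cell at term held more of its UMIs in the marker genes of all gated cell types together, 18.7% against 8.53% at 120d. The part of this in these lower values was not tested.

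TOP2A in endocrine cells was the only member called higher, where 7.88% of all endocrine genes were. It was at 61.2, 28.1 and 39.3 CPM in the non-CF and 51.2, 31.8, 79.0, 40.0 and 39.6 CPM in the CF fetuses at 120d, and at 54.9, 130 and 147 CPM in the non-CF and 19.4, 222 and 78.1 CPM in the CF lambs. CF donor 1 at term lay below all of the fetuses, and the log2 fold change of 1.19 ± 0.40 (SE, edgeR adjusted p = 0.0486) lost its call in 16 of 21 fits that left out 1 animal. All 10 endocrine estimates between 120d and term were above 0, from 0.22 to 1.19, with CENPF at 1.19 (edgeR adjusted p = 0.0792). The endocrine decrease in dividing share between 80d and 120d was not matched by these sums. The median of the 10 estimates was -0.15, MKI67 was at -1.10 and UBE2C at 0.54, none of them called by edgeR (lowest adjusted p = 0.105).

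In duct cells all 10 estimates from 80d to 120d were below 0, from -1.92 for CCNB1 to -0.33 for PCNA, and 8 passed an unadjusted p of 0.05, where 11.6% of all duct genes were lower at that level. CCNB1 was at 53.6, 53.3, 6.70 and 25.2 CPM in the non-CF and 50.3, 17.0 and 18.4 CPM in the CF fetuses at 80d, and at 8.28, 5.38 and 4.16 CPM in the non-CF and 1.17 to 17.1 CPM in the CF fetuses at 120d. It stood just outside the threshold (log2 fold change -1.92 ± 0.59, SE, edgeR adjusted p = 0.0515). Stromal cells had 10 of 10 estimates below 0 and endothelial cells 10 of 10, with medians of -1.06 and -0.78, whereas acinar cells had 5 of 10, with a median of 0.007. In mural cells all 9 tested members were below 0 from 120d to term, with CENPF at -2.70, and edgeR called none of them (lowest adjusted p = 0.0824).

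**Figure D4:**
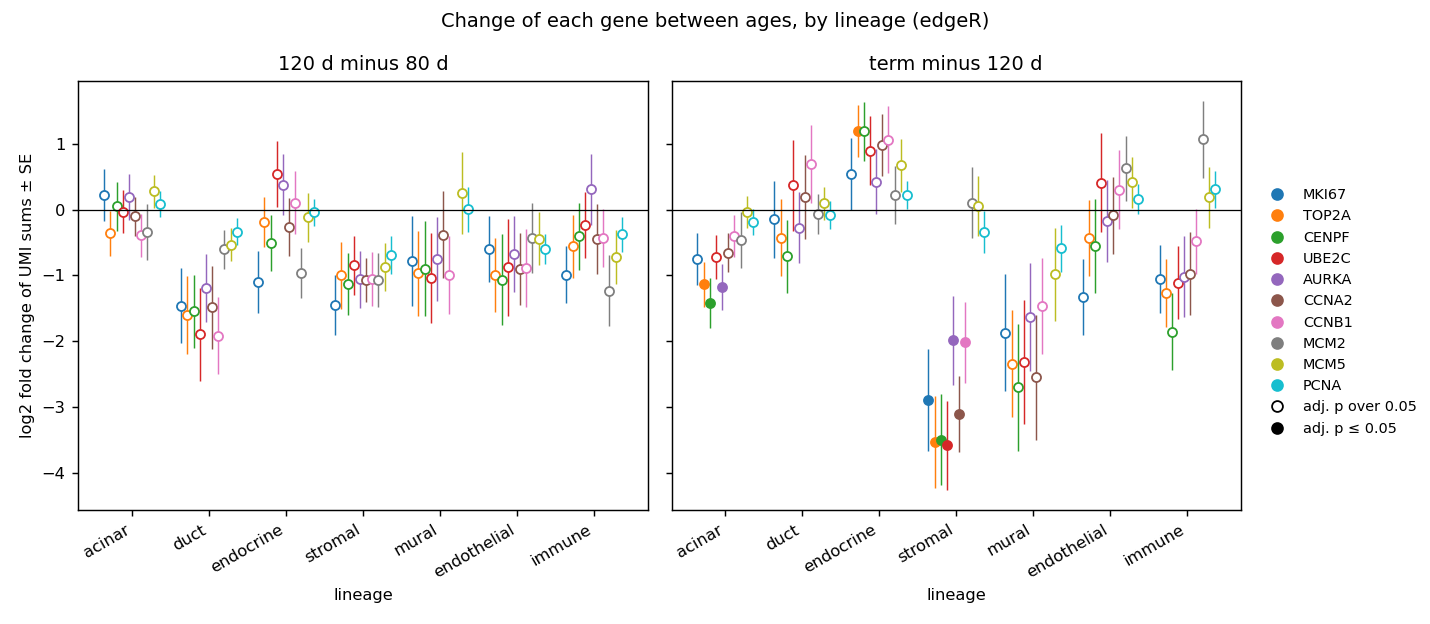
edgeR log2 fold changes of the 10 genes (vertical axis, with SE) between 80d and 120d and between 120d and term in each lineage; filled points have an adjusted p of at most 0.05. The 7 filled stromal points lie between -3.59 and -1.99 for 120d to term, and the single filled point above 0 is TOP2A in endocrine cells.

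The S phase share, from cells with at least 2 of MCM2, MCM5 and PCNA, had a lower mean than the dividing share in every lineage at each age after thinning. In stromal cells it fell from 1.72% ± 0.731 (SD, n = 7) at 80d to 0.445% ± 0.583 (SD, n = 9) at 120d (exact permutation adjusted p = 0.0261 over 14 tests). In immune cells it fell from 2.39% ± 1.52 (SD, n = 7) to 0.282% ± 0.415 (SD, n = 8) with the same adjusted p by the exact permutation test. Leaving out 1 fetus at 80d (any of the 4 non-CF or CF donor 2) raised both adjusted p-values above the threshold, to at most 0.0559. The other 12 tests did not pass. Without thinning, the mean S phase share was lower at 120d in all 7 lineages, and 6 passed the test, all but acinar cells (21.4% to 16.9%, exact permutation adjusted p = 0.281). Median depth fell between these ages in the same 6 lineages and rose in acinar cells, from 26553.5 to 31511 UMIs a cell, and its part in these unthinned shares was not tested. In duct cells the share went from 21.1% to 10.1% (exact permutation adjusted p = 0.00122), at median depths of 12554 and 8567 UMIs a cell. The unthinned S phase share of duct cells at 80d was thus above their unthinned dividing share of 12.9%, the reverse of the order after thinning.

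CF and non-CF animals of the same age were compared next. Over all cells the CF mean minus the non-CF mean was 0.653 points at 80d, 0.0244 points at 120d and 0.829 points at term (exact permutation p = 0.514, 0.952 and 0.343, where the smallest p possible was 0.0571, 0.0238 and 0.0571). The difference at term rested on CF donor 2, since CF donor 1 was lowest of the 7 lambs. At 80d and term a difference of any size could therefore not pass. Of the 21 lineage-by-age tests 0 passed (exact permutation, lowest adjusted p = 0.884), and with these numbers of animals none could have passed after adjustment, so the count does not bear on whether the genotypes differed.

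In the edgeR fits 0 of the 69 member-by-lineage tests were called between CF and non-CF animals at each age and 0 for the difference between term and 80d. Unadjusted p-values under 0.05 numbered 1, 3, 2 and 0, and DESeq2 called 0, 0, 1 and 0. Over all genes edgeR called 0.182% at 80d, 0.0455% at 120d, 0.542% at term and 0.00758% for the difference. The unadjusted p was under 0.05 for 7.01%, 7.37%, 9.66% and 5.70% of all genes, and DESeq2 called 0.642%, 0.209%, 1.52% and 0.134%. The lowest p-value of a member was that of PCNA in acinar cells at term, at 71.0, 35.5, 56.5 and 29.9 CPM in the non-CF and 28.1, 18 and 20.5 CPM in the CF lambs, which did not overlap (log2 fold change -1.12 ± 0.30, SE, edgeR adjusted p = 0.0709, DESeq2 adjusted p = 0.0157). It passed in edgeR without non-CF donor 2 or 4. At 120d MKI67 in endothelial cells was at 9.11, 196 and 59.4 CPM in the non-CF and 4.19 to 24.4 CPM in the CF fetuses, so the groups overlapped through non-CF donor 1 (log2 fold change -2.24 ± 0.68, SE, edgeR adjusted p = 0.346).

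Other cell cycle genes were read from 4 lists, pooled over lineages. From 80d to 120d, edgeR called 22 of 144 tests lower and 0 higher in the list of 24 DNA replication genes, and 8 of 197 lower and 0 higher in the list of 29 genes of G2 and mitosis, where 2.52% of all tests were lower and 3.19% higher. From 120d to term there were 18 lower and 3 higher for replication and 47 lower and 3 higher for G2 and mitosis, where 7.62% of all tests were lower and 8.72% higher. The difference between the lists was not tested. Stromal cells held 26 of those 47, of 28 tested there (median log2 fold change -2.34, all genes -0.04), and acinar cells 13, of 29 (median -0.72, all genes -0.01). Between the genotypes 0 genes of the 4 lists were called at any age. The lists held 144 tests for replication, 197 for G2 and mitosis, 35 for G1 and 79 for inhibitors. Over all genes edgeR called 0.182%, 0.0455% and 0.542% between the genotypes at 80d, 120d and term. The count of 0 is near that background, so it is not a result about these genes.

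UHRF1, which keeps DNA methylation through replication, was lower at 120d than at 80d in stromal (log2 fold change -1.80 ± 0.29), duct (-1.40 ± 0.28), endothelial (-1.18 ± 0.35) and endocrine cells (-1.15 ± 0.29, SE, edgeR adjusted p from 0.000645 to 0.0439). From 120d to term in stromal cells CENPE, a kinetochore motor, fell by 3.54 ± 0.73, TTK, a spindle checkpoint kinase, by 3.48 ± 0.81 and AURKB, the kinase of the chromosomal passenger complex, by 3.30 ± 0.68 on the log2 scale (SE, edgeR adjusted p from 0.00153 to 0.00402). In endocrine cells CDC6, which loads the helicase, rose by 1.66 ± 0.50 and PLK1, a mitotic kinase, by 1.55 ± 0.52 (SE, edgeR adjusted p = 0.0306 and 0.049).

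Of the list of 13 inhibitors and pocket proteins, 5 of 79 tests were higher and 3 lower from 80d to 120d, and 2 higher and 10 lower from 120d to term. Over all genes 3.19% were higher and 2.52% lower at the first step, and 8.72% higher and 7.62% lower at the second, so these counts are to be read against that background. CDKN1A, the p53-induced inhibitor p21, rose by 2.85 ± 0.73 in duct and 3.30 ± 0.70 in endothelial cells from 80d to 120d (SE, edgeR adjusted p = 0.023 and 0.00578). CDKN1C, the imprinted inhibitor p57, fell by 1.95 ± 0.44 in acinar and 1.60 ± 0.33 in duct cells over the same step (SE, edgeR adjusted p = 0.0108 and 0.00643). It fell from 120d to term by 3.28 ± 0.49 in acinar, 2.08 ± 0.26 in endothelial, 1.77 ± 0.48 in immune and 1.70 ± 0.21 in endocrine cells (SE, edgeR adjusted p from 8.29e-06 to 0.0496). Among 6 cyclins and kinases of G1, 1 test of 35 was higher and 5 lower at 120d, CCND2, cyclin D2, being 0.67 ± 0.12 higher in endocrine cells and 0.84 lower in acinar cells on the log2 scale (edgeR adjusted p = 0.00154 and 0.0395), and 4 were lower at term.

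Among the genes whose levels were most like the members' over the 153 sums were KIF11 (mean Pearson correlation with 9 members 0.786), CENPE (0.772), AURKB (0.768), KIFC1 (0.756), DLGAP5 (0.747), BUB1B (0.745) and CDCA2 (0.740). The median over all 6689 genes compared was 0.203. These sums share animals, libraries and depth.

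Because the lineages differ in number, the makeup of the dividing cells was set beside that of all cells, as means over animals. At 80d stromal cells made up 23.7% of dividing cells and 18.7% of all cells, duct cells 18.5% and 13.2%, acinar cells 17.7% and 26.6%, and endocrine cells 8.48% and 16.8%. At 120d acinar cells made up 40.7% of dividing cells and 41.9% of all cells. At term acinar cells made up 52.3% and 56.5%, and stromal cells 0.617% and 3.69%. These shares follow which cells were released from the tissue as well as which cells were in it, and the 2 cannot be told apart.

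**Figure D5:**
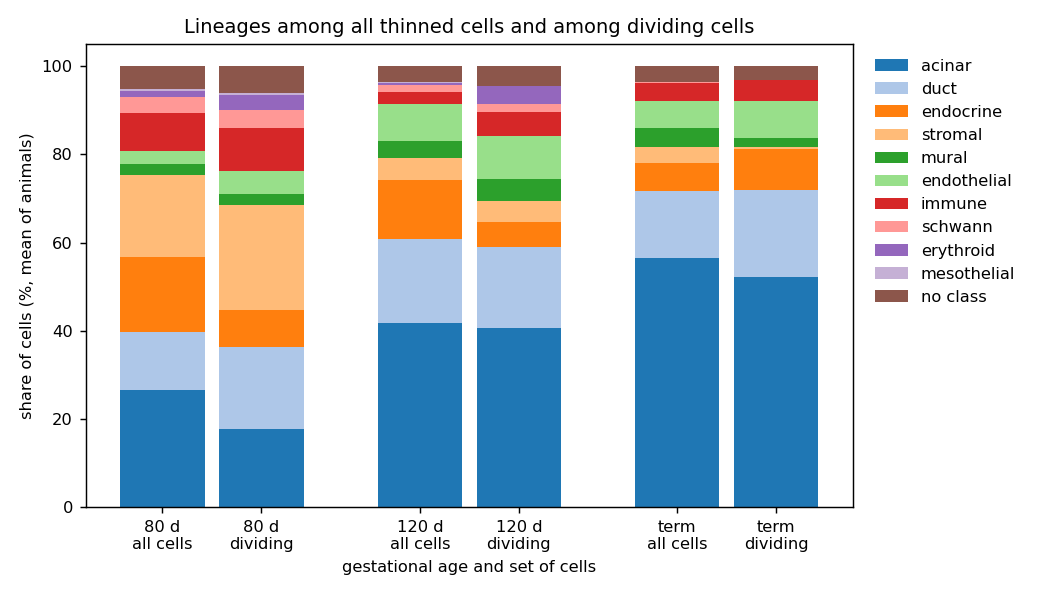
Mean makeup by lineage (percent, stacked bars) of all kept cells and of dividing cells at 80d, 120d and term. Stromal cells go from 23.7% of the dividing cells at 80d to 0.617% at term, and acinar cells from 17.7% to 52.3%.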

How the data were processed

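Single-cell libraries were made by the authors with 10x Genomics 3′ kits (v3 or v3.1). The deposited values are UMI counts per gene in each barcode called as a cell, which the authors obtained with Cell Ranger 3.1.0 on the Texel genome Oar_v4.0, with no normalization and before the filter on cells. No deposited columns of other samples were present. The cell numbers in the study's sample list are the barcodes before its filter, except for non-CF donor 2 at term, where the files hold 13488. Groups came from the sample labels, and the breeding of the animals from the study's methods. Libraries of 1 animal were averaged (shares) or summed (counts). Across libraries, 824 kept barcodes occurred in more than 1 library, at most 12 in a pair.

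The genes and lists were chosen with earlier results of these data known. Cells were filtered as in the study (over 200 and under 6000 genes, under 25% mitochondrial UMIs). For the gate, counts were scaled per 10000 UMIs, and the scores of marker lists, less each library's background (percentile 10 over cells, divided by percentile 99.5), had to reach 0.15 and lead the next list by 0.1. Of the acinar markers 13 of 18 were in the tables, and INS was not used. Doublet scores came from Scrublet in scanpy 1.11.5. The cells with the highest scores in each library were marked, at a preset rate of 0.8% per 1000 kept cells. This marked 2519 kept cells (3.17%), a number set by library size, and they were kept in the main results. Each cell was thinned to 2000 UMIs (seed 88). Animals with at least 20 cells of a lineage were used. A count of 0 was taken to allow up to 3 counts, and such limits cover counting error only.

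Shares were compared with exact two-sided permutation tests over animals (scipy 1.17.1) and Benjamini-Hochberg adjustment. Summed counts were fitted in edgeR 4.0.16 (R 4.3.3, TMM, filterByExpr, quasi-likelihood) with 1 fit per lineage over 6 groups, 8042 to 15048 genes each, at an adjusted p of 0.05. Age contrasts averaged the genotypes. In simulated counts for 120d minus 80d, edgeR recovered 96% to 100% of 4-fold and 25% to 36% of 2-fold changes. These counts had the same spread for every gene, and 200 genes drawn from all genes were raised at 120d. The spread of the members was not simulated, so these rates do not say how often a change in a member would be called. All 10 members were named, with up to 3 called genes per list, lineage and step with the largest change, of which a selection is described, and the 8 genes most correlated with the members, 1 of which is not reported here. Alternatives were other thinning depths, definitions, gates, filters, DESeq2 1.42.0, leaving out animals and a donor-number block. Same-numbered donors did not deviate together (median correlation -0.009 over 296 pairs, 0.003 over 1079 pairs of different numbers), so the numbers do not pair the animals. No sequences are printed, since none of these genes' sequences were used here.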

Additional observations from a re-analysis of the deposited data

Results flagged for a closer look

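The endothelial dividing share of CF donor 6 at 120d, 5.43%, stood apart from the 5 other CF fetuses of that age (1.23% to 2.63%, n = 6) by Dixon's criterion. Among 49 groups of values tested this way it was the only one, where chance gives about 1 in 20, or 2.45.

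The change in points of the endocrine dividing share differed from that of some other lineages by a test of the difference itself, in 5 of 12 tests. These tests, with endocrine cells as the lineage compared, were added after the values were seen. Between 80d and 120d the within-animal difference between endocrine and duct cells moved by 4.15 points, from -5.53 to -1.39 (exact permutation adjusted p = 0.00999 over 12 tests), and that between endocrine and stromal cells by 4.00 points, from -4.82 to -0.816 (exact permutation adjusted p = 0.00746). Over this step the test was not passed against acinar (-0.382 points), immune (0.656 points), mural (2.33 points) or endothelial cells (4.40 points), with exact permutation adjusted p = 0.683, 0.683, 0.227 and 0.0634. Between 120d and term it moved by 2.48 points against acinar cells, 2.84 points against stromal cells and 3.40 points against immune cells, and was not passed against duct, mural and endothelial cells. All these differences are in points. With a mean of 2.74% at 80d, endocrine cells could not fall by 5.94 or 5.30 points, as duct and stromal cells did. The ratio of the 80d mean to the 120d mean was 2.54 in endocrine, 3.55 in duct and 3.35 in stromal cells. In the other lineages it was 1.47 to 2.73, and differences between these ratios were not tested. The part of the few dividing endocrine cells in each animal was not tested.

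Cells outside the 7 lineages also held dividing cells, pooled over animals. At 80d they were 7.11% of 577 Schwann-like cells (exact binomial 95% interval 5.15% to 9.52%) and 14.5% of 207 erythroid-like cells (10.0% to 20.0%). At 120d they were 23.3% of 133 erythroid-like cells (16.4% to 31.4%). These intervals cover counting error only, not the spread between animals: at 80d, before thinning, CF donors 1 and 3 gave 238 and 218 of the Schwann-like cells and the other 5 fetuses 7 to 54 each. Red blood cells were lysed during isolation. Barcodes with 6000 genes or more, which the filter removed, were dividing in 17.8% of 2545 cases against 2.81% of the kept cells, and in 25.2% at 80d, 13.8% at 120d and 9.75% at term. They held 15.7% of the dividing barcodes counted with them, 24% at 80d. The part of doublets among them was not tested.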

How the results depend on the processing

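Of 170 recomputed values that answer a comparison, 147 were counted as the same, and 0 as reversed. For estimates this meant the same call, and an uncalled estimate could change sign. For counts of calls it meant a number near the main one, and a count could not reverse. Of 1636 estimates for single genes and lineages, 1574 were counted as the same and 0 as reversed. Most of them were for pairs not called in the main fit. The fall over all cells from 80d to 120d was -3.06 points in non-CF animals alone, a design that cannot pass. The step from 120d to term passed with at least 3 of the 7 genes (-0.709 points) and with thinning to 1000 UMIs (-0.679). It passed with thinning outside the marker genes, also to 1000 UMIs (-0.709), and without doublets (-0.772). It passed on the arcsine square root scale (-0.028) and with each library a replicate (-0.75). The library setting treats the 2 libraries of an animal as independent, so its calls, here and below, do not rest on animals as replicates. The step ran from -1.06 to -0.598 when 1 animal was left out, and passed in 2 of these 23 settings. The 5 passing lineage-by-step tests became 8 when thinned outside the marker genes, 9 with each library a replicate, and 0 within non-CF or within CF animals alone, where no test of non-CF animals could pass and no single test of CF animals could pass after adjustment. Members called lower at 120d numbered 0 in the main fit, 5 with no filter on low counts, 1 with a stricter gate, 1 in DESeq2 and 0 to 5 when 1 animal was left out (5 without non-CF donor 4 at term, all in duct cells). The 1 call higher at term became 0 without the 2 female CF fetuses and 0 to 2 when 1 animal was left out. The 10 lower at term became 16 with no filter and 7 to 15 when 1 animal was left out. With no filter the genotype calls became 1, 2 and 2 at the 3 ages and 1 for their difference. At term DESeq2 called 1, and leaving out 1 animal gave 0 to 1. The cause was not tested.

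With a replicate block on the donor number, 4 members were lower at 120d, 11 lower and 0 higher at term, and 0 differed between genotypes. The numbers share only a label.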

Other observations

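The endocrine cells were divided by their most counted hormone gene (at least 10 UMIs), a description chosen after the values were seen. Of 47 dividing endocrine cells at term, GCG, the glucagon gene, led in 33 (70.2%), against 42.6% of all endocrine cells of that age. At 80d GCG led in 43 of 77 dividing cells (55.8%), against 54.7% of all endocrine cells, and at 120d in 18 of 40 (45%), against 55.4%. SST, the somatostatin gene, led in 12 of the 77 at 80d and 3 of the 47 at term. These are cells pooled over animals, hormone RNA is also free in the suspension, and insulin was not analysed here, so beta cells fall under the other classes.

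In 5 of the 6 lineages tested, dividing cells held a smaller percent of their UMIs in marker genes than the other cells of the same animal. The marker genes here were those of all gated cell types together, and those of the cell's own lineage were not counted apart. Mural cells were not tested. In this comparison, chosen after the values were seen, cells were called on 1000 UMIs outside the markers, in animals with at least 5 dividing cells of the lineage. The marker share was lower in 16 of 21 animals for acinar cells (exact permutation adjusted p = 0.00586, medians 8.19% and 8.99%), 16 of 18 for duct cells (exact permutation adjusted p = 0.000961), 8 of 9 for stromal cells (exact permutation adjusted p = 0.00938) and 9 of 9 for both endothelial and immune cells (exact permutation adjusted p = 0.00586). The 5 acinar exceptions were all fetuses at 120d, where the share was higher in dividing cells in 5 of 8 animals. For endocrine cells it was lower in 11 of 12 (medians 5.09% and 11.5%), which did not pass (exact permutation adjusted p = 0.0786). The part of the deeper profiles of dividing cells, and of doublets, was not tested.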
